A study of Drosophila melanogaster with 4 samples.

Results

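The genes described here encode zona pellucida (ZP) domain proteins of the apical extracellular matrix, the layer that epithelial cells secrete on the side that later carries cuticle or lens. They were the genes dpy, pio, m, dy, dyl, tyn, neo, nyo, mey and qsm, and each was taken by its symbol from the platform annotation, with its brightest probe set over the arrays standing for the gene. Of these 10 genes, 8 had a probe set that carries their symbol alone, among 11982 named genes in all. The genes m and nyo were not analysed here. Gene order in RefSeq places nyo next to mey, and a single protein-coding gene, CG9360, between m and dy.

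ZP domain proteins are secreted or held at the apical membrane, where their ZP domains let them polymerise into filaments. These filaments fasten the cell surface to the overlying matrix, and they shape wing hairs, bristles, denticles, tracheal tubes and wings while those structures are being formed. In the pupal retina the cone and pigment cells secrete the corneal lens apically, and dyl is known to be needed for the shape and chitin content of that lens.

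Transcript levels were measured in Drosophila melanogaster pupal eye discs taken about 40 h after pupariation from animals kept at 29 °C. The 2 control samples carried GMR-Gal4 alone, and the 2 Yorkie samples carried GMR-Gal4 crossed to UAS-Yki, so that both groups shared the driver. GMR-Gal4 is active in the eye behind the morphogenetic furrow and not in every cell of a dissected disc, and the number of animals pooled per sample is not stated. Each sample was hybridised to 1 Affymetrix Drosophila Genome 2 array, and the labels call the replicates biological. The single comparison asks which transcripts differ when Yorkie (Yki), the coactivator that Hippo signalling restrains, is raised.

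Every array had a trimmed mean of 500.01 as deposited, and the median intensity over non-control probe sets lay between 79.4 and 101. yki measured 1285 and 1261 in control discs against 26417 and 26183 in Yki discs, so the overexpressed gene followed the labels. All 14 eye marker genes were measured and none had a mean below 16 in both groups. Their median log2 difference was -0.07 (-0.53 to 0.22 with 1 array left out). At an unadjusted limma p under 0.05, 4 of the 14 were lower with Yki (sev, ro, sv and B-H1), beside 8.07% of all genes. In the other direction 1 was higher (chp), beside 7.19% of all genes. sev, a photoreceptor receptor kinase gene, measured 288 and 238 in control discs and 59.3 and 82.4 in Yki discs, and ro, a homeobox gene, 166 and 204 in control discs and 53.5 and 6.13 in Yki discs. In whole discs, fewer cells of a type and less RNA per cell cannot be told apart.

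None of the ZP genes passed the test between control and Yki discs. Of the 8 genes, 6 had a higher mean log2 value in Yki discs (dpy, dyl, tyn, neo, mey and qsm), as 49.0% of all genes did. The other 2 (pio and dy) had a lower one. Over the 8 genes the limma adjusted p ran from 0.389 to 0.949. For 6 of the 8 the groups overlapped. mey and qsm were the genes with both Yki arrays above both control arrays. mey had the largest difference of the 8, with a mean 2.32 times as high in Yki discs, and its log2 difference of 1.10 came down to 0.50 without Yki replicate 1.

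The test was limma's two-sided test on log2(intensity + 16), with adjustment over all 18769 non-control probe sets, of which 3 (0.016%) passed an adjusted p of 0.05. Adjusted over genes the count was 12 of 11982 (0.1%), again without a ZP gene. At an unadjusted limma p under 0.05 it was 0 of the 8 ZP genes, beside 15.3% of all genes. The groups did not overlap for 2 of the 8, both higher with Yki, beside 47.7% of all genes in either direction and 22.5% of all genes in that direction. None lay lower without overlap, beside 25.2% of all genes. No ZP gene lay at least 2-fold apart on every pair of a Yki and a control array, which 4.01% of all genes did. The counts of ZP genes were near or below these shares. The median log2 difference of the 8 was 0.42, beside -0.01 over all genes. With 2 arrays per group the smallest two-sided p of an exact permutation test is 0.333.

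**Figure D1:**
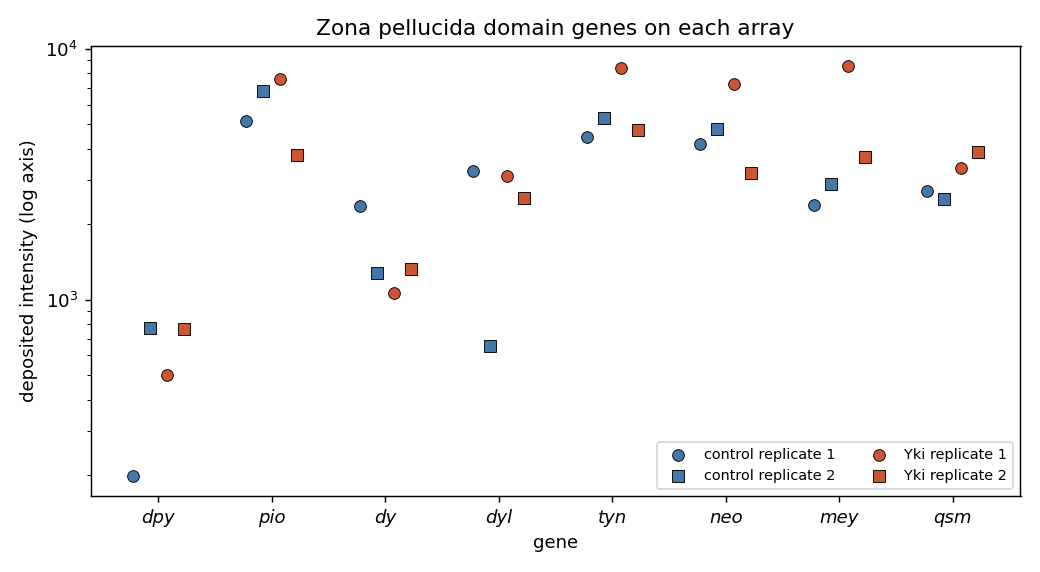
Deposited intensity on a log axis for each ZP gene, with 1 point per array: blue for control, orange for Yki, circles for replicate 1 and squares for replicate 2. dpy is low on control replicate 1 (199), dyl is low on control replicate 2 (652), and tyn, neo and mey are highest on Yki replicate 1.

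dpy encodes Dumpy, an extremely long fibrous matrix protein that links epidermal cells to cuticle at muscle attachment sites and in the wing. It measured 199 and 775 on control replicates 1 and 2, and 503 and 762 on Yki replicates 1 and 2. Control replicate 1 was low, and the other 3 arrays lay within 503 to 775, so that both Yki values fell between the control values. The log2 difference was 0.62 (SE 0.66, 95% interval -1.06 to 2.31, limma adjusted p 0.75). Without control replicate 1 it turned to -0.32.

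pio, or piopio, encodes a ZP protein that works with Dumpy in attaching epithelia to the apical matrix and in tracheal tubes. The brightest of its 3 probe sets measured 5137 and 6807 in control discs and 7579 and 3760 in Yki discs. The Yki arrays were the highest and the lowest of the 4 and enclosed the control arrays. The means were 5972 ± 1181 and 5670 ± 2701 (SD, n = 2 each), with a log2 difference of -0.15 (SE 0.41, limma adjusted p 0.923). The second probe set measured 144 and 162 in control discs and 263 and 145 in Yki discs. It too was highest on Yki replicate 1. The third stayed between 16.3 and 19.5 on the 4 arrays, close to the pseudocount of 16. Averaged over the 3 probe sets the log2 difference of pio was 0.049, opposite in sign to that of the brightest.

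dy (dusky) and the unmeasured m (miniature) are related genes whose products flatten and shape wing cells, and dyl (dusky-like) is their relative with roles in bristles and lens. dy measured 2357 and 1283 in control discs and 1061 and 1321 in Yki discs. Control replicate 1 stood above the other 3 arrays, which lay within 1061 to 1321. It had the most negative difference among the ZP genes, a log2 difference of -0.55 (SE 0.36, 95% interval -1.48 to 0.38, limma adjusted p 0.589). Without control replicate 1 this was -0.11, and it stayed below 0 with any single array left out.

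dyl measured 3245 and 652 in control discs and 3107 and 2540 in Yki discs. By the platform's naming, the _s_at ending of its probe set ID marks probes that can match more than 1 transcript or gene, so the value of dyl is less certain. The same ending, and the same limit, holds for zld, EcR, f, sn, slow, Tsp and Fur2, whose values are given further on. Control replicate 2 was far below the other 3 arrays, which lay within 2540 to 3245. The control arrays differed 4.98-fold from each other, a gap on the log2 scale larger than that of 99.2% of all genes. The difference between groups, 0.94 on the log2 scale (SE 0.76, 95% interval -1.01 to 2.88, limma adjusted p 0.669), had the widest interval of the 8. Without control replicate 2 it was -0.21, and without control replicate 1 it was 2.08.

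tyn, neo and mey are, with nyo, m and dyl, targets of the transcription factor Shavenbaby (the product of ovo) in the embryonic epidermis, where their products occupy different parts of the growing denticle. tyn (trynity) measured 4473 and 5317 in control discs and 8378 and 4752 in Yki discs. neo (neyo) measured 4161 and 4779 in control discs and 7235 and 3192 in Yki discs. In both, Yki replicate 1 was the highest array. Yki replicate 2 lay between the control arrays for tyn and below both for neo. The log2 differences were 0.37 for tyn (SE 0.35) and 0.11 for neo (SE 0.44), with limma adjusted p of 0.717 and 0.949. Without Yki replicate 1 they were -0.037 and -0.48.

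mey (morpheyus) measured 2377 and 2897 in control discs and 8511 and 3719 in Yki discs. Both Yki arrays lay above both control arrays, and Yki replicate 1 stood far above the rest. The means were 2637 ± 368 and 6115 ± 3389 (SD, n = 2 each), a ratio of 2.32. The log2 difference of 1.10 (SE 0.44, 95% interval -0.04 to 2.23, limma adjusted p 0.389) was higher than that of 95.5% of all genes. It was 0.50 without Yki replicate 1 and 1.69 without Yki replicate 2.

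The genes whose centred values over the 4 arrays lay closest to those of mey, among the other 7827 genes with a mean intensity of at least 100, were unc79, Lcch3 and nAChRbeta2. unc79 encodes a subunit of a sodium leak channel complex, and Lcch3 and nAChRbeta2 encode subunits of neurotransmitter-gated channels. Their root mean square distances were 0.156, 0.164 and 0.171 on the log2 scale. All of them were highest on Yki replicate 1, with intensities of 469, 1413 and 744. That follows from choosing them by closeness to mey on these arrays and is not a separate result. On Yki replicate 2 they measured 240, 710 and 332.

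qsm (quasimodo) encodes a membrane-anchored ZP protein known from the light response of clock neurons and from the matrix of tendon cells. It measured 2715 and 2523 in control discs and 3338 and 3893 in Yki discs. Both Yki arrays were above both control arrays, and the replicates of each group lay close together. Among the ZP genes it had the narrowest interval, with means of 2619 ± 136 and 3616 ± 392 (SD, n = 2 each) and a log2 difference of 0.46 (SE 0.23, 95% interval -0.14 to 1.05). It did not pass (limma adjusted p 0.478), and 82.7% of all genes had a lower difference. Leaving out 1 array gave 0.35 to 0.57.

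**Figure D2:**
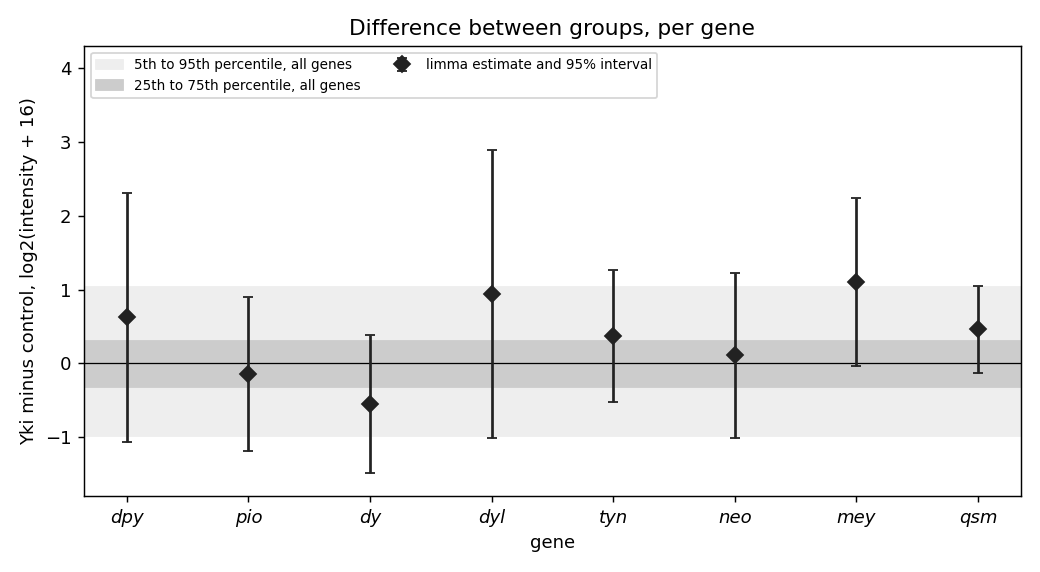
Difference between Yki and control discs on the log2(intensity + 16) scale for each ZP gene. Diamonds with bars are the limma estimates with 95% intervals, and the grey bands the middle ranges of all genes. All 8 intervals hold 0, and that of dyl is the widest.

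The intervals show what 4 arrays could resolve. All 8 intervals included 0, 6 of them reached above 1 on the log2 scale and 5 reached below -1. Each of the 8 held a 2-fold difference in at least 1 direction, so the p-values do not show that the levels were alike. The interval of qsm ran from -0.14 to 1.05, and that of mey from -0.04 to 2.23, so that a 2-fold fall lay outside both. For pio, tyn and dy the intervals were -1.19 to 0.90, -0.52 to 1.26 and -1.48 to 0.38.

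For 7 of the 8 genes the gap between replicate arrays of 1 group was larger than the difference between groups, as it was for 60.9% of the genes with a mean of at least 100, and qsm was the exception. pio, tyn, neo and mey were all higher on Yki replicate 1 than on Yki replicate 2, by 1.01, 0.82, 1.18 and 1.19 on the log2 scale. For pio, neo and mey the gap was at least 1 log2 unit in that direction, which 2.17% of the genes with a mean of at least 100 reached. In the control group the same 4 genes were slightly lower on replicate 1 than on replicate 2, with log2 gaps of -0.41 to -0.20. dpy and dyl had their large gaps in the control group instead, and in opposite directions, -1.88 for dpy and 2.29 for dyl. The grouping was made after the values were seen and carries no test.

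**Figure D3:**
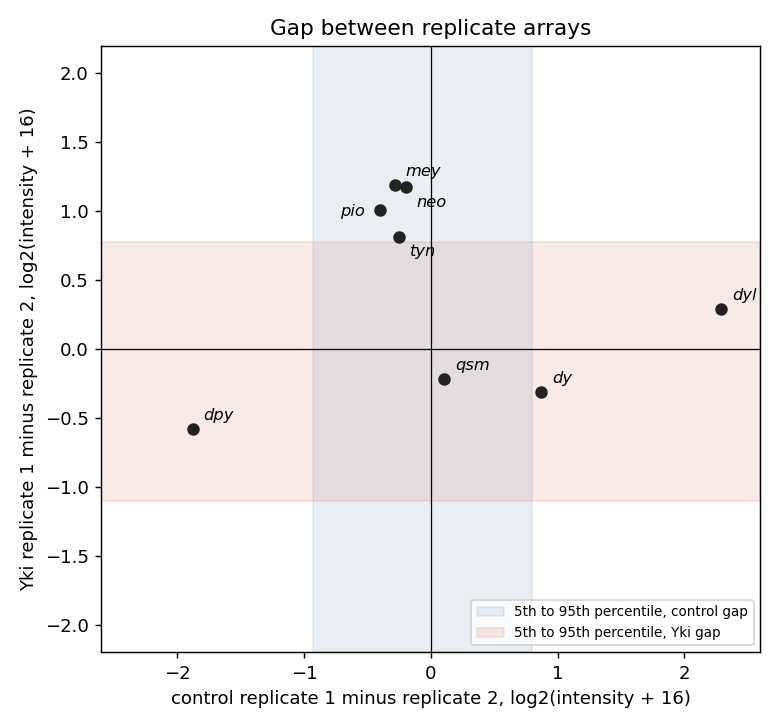
Replicate 1 minus replicate 2 on the log2(intensity + 16) scale, in control discs (horizontal axis) and Yki discs (vertical axis), for each ZP gene. The bands hold the middle 90% of genes with a mean intensity of at least 100, and pio, tyn, neo and mey lie above the Yki band while dpy, dyl and dy lie outside the control band.

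Other genes of the apical surface also differed between replicate arrays. ovo itself measured 917 and 2047 in control discs and 1581 and 720 in Yki discs. It was thus higher on Yki replicate 1 than on Yki replicate 2, and lower on control replicate 1 than on control replicate 2, as pio, tyn, neo and mey were. dyl was instead higher on replicate 1 in both groups, by 2.29 in control discs and 0.29 in Yki discs on the log2 scale. Of the 7 measured genes in the list of apical extension genes and Shavenbaby effectors, 6 were higher on Yki replicate 1 than on replicate 2 (median 0.49). The exception was y (-1.16). In control discs 2 of the 7 were higher on replicate 1 (median -0.70). The chitin and corneal matrix genes ran the other way, with 2 of 11 higher on Yki replicate 1 (median -0.37) and 9 of 11 higher on control replicate 1 (median 0.52). Over genes with a mean of at least 100, the median gap was 0.09 between the Yki arrays and -0.04 between the control arrays. Of those genes, 57.9% were higher on Yki replicate 1 than on replicate 2, and 45.8% were higher on control replicate 1. Muscle markers were also uneven, and lower on replicate 1 in both groups, with 0 of 10 higher on control replicate 1 (median -0.86) and 3 of 10 higher on Yki replicate 1 (median -0.74). The part of these differences in the values of the ZP genes was not tested.

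A short list of further ZP domain genes, which is not a full set, held nompA, which joins sensory cilia to the cuticle, and zye and cyr, which are also Shavenbaby targets in the embryo. All 3 had both Yki arrays above both control arrays, as 22.5% of all genes did, and none passed the test. zye measured 136 and 85.8 in control discs and 294 and 310 in Yki discs (log2 difference 1.35, SE 0.29, limma adjusted p 0.188). It lay at least 2-fold apart on every pair of arrays, as 1.69% of all genes did in that direction. nompA measured 149 and 219 in control discs and 437 and 259 in Yki discs, again highest on Yki replicate 1. cyr measured 198 and 180 in control discs and 228 and 254 in Yki discs, the smallest difference of the 3.

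None of the 7 measured genes of apical extensions passed the test, and 3 had an unadjusted limma p under 0.05, all higher with Yki, beside 7.19% of all genes in that direction. The list had a median log2 difference of 0.91, which was 0.073 without Yki replicate 1 and 0.52 to 1.36 without any other single array. sha, needed for actin-rich hairs, measured 53.6 and 96.6 in control discs and 516 and 308 in Yki discs (log2 difference 2.23, SE 0.38, limma adjusted p 0.149). f, an actin bundling protein gene of bristles and hairs, measured 663 and 463 in control discs and 1732 and 1231 in Yki discs. y, which is needed for black cuticle pigment, measured 219 and 132 in control discs and 463 and 1052 in Yki discs. The groups of sha, f and y did not overlap, 3 of the 7 genes, where 22.5% of all genes were higher without overlap. ovo (log2 difference -0.36) and sn, the fascin gene (0.01), had overlapping groups.

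Among the chitin and corneal matrix genes, 0 of 11 passed the test and 1, higher with Yki, had an unadjusted limma p under 0.05, near the 7.19% of all genes in that direction. The list median was 0.27, and -0.064 to 0.48 with 1 array left out. That gene was Cpr72Ec, a corneal lens protein gene, with 8413 and 9124 in control discs and 17742 and 21015 in Yki discs. kkv, the chitin synthase gene, measured 5531 and 3847 in control discs and 6811 and 7885 in Yki discs, without overlap between the groups. exp, which promotes chitin deposition, overlapped between groups, with 3113 and 1502 in control discs and 3102 and 5390 in Yki discs. Of the proteases that process matrix proteins, Np, which cleaves Pio in the trachea, measured 332 and 383 in control discs and 458 and 316 in Yki discs. Fur2, a furin gene, measured 1742 and 1656 in control discs and 1737 and 2425 in Yki discs. Neither passed, and both overlapped between the groups.

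Of 10 measured regulators of cuticle and lens secretion, none passed the test, and 2 had an unadjusted limma p under 0.05, both lower with Yki, beside 8.07% of all genes in that direction. zld, the gene of the zinc finger factor Zelda, measured 967 and 1397 in control discs and 268 and 345 in Yki discs. br, which encodes the Broad zinc finger factors of pupal commitment, measured 3751 and 3195 in control discs and 350 and 950 in Yki discs. Both were at least 2-fold lower on every pair of arrays, which 2.32% of all genes were. EcR, the ecdysone receptor gene, measured 580 and 1023 in control discs and 294 and 535 in Yki discs. These genes also mark stage, and their part in the levels of the ZP genes was not tested.

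**Figure D4:**
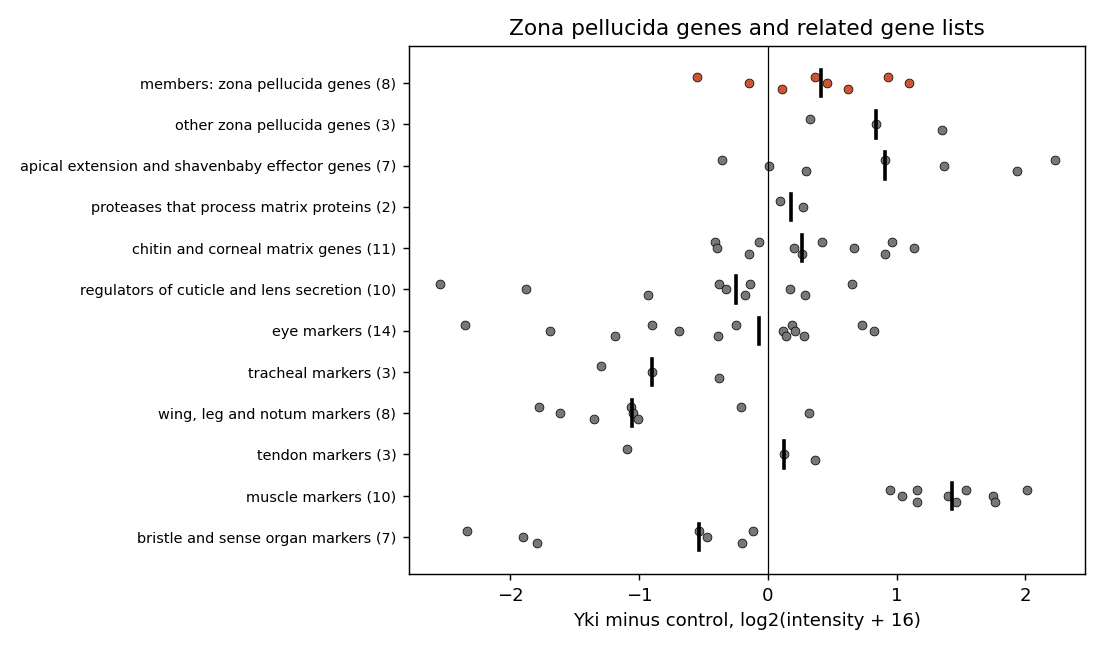
Log2(intensity + 16) difference between Yki and control discs for each measured gene, by list, with the number of genes in brackets and a bar at the median. The ZP genes (orange) spread from -0.55 to 1.10 around a median of 0.42, and the muscle markers are all above 0.

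ZP genes are also expressed in other tissues that a dissected disc could hold, so genes used as markers of those tissues were read on the same arrays. Whether the listed genes are also expressed in the eye disc itself was not checked, so these levels do not give the amount of a tissue. Over all genes, 49.0% had a higher mean log2 value with Yki. All 10 muscle markers were higher with Yki, with 8 of 10 at an unadjusted limma p under 0.05 (7.19% of all genes in that direction) and a median log2 difference of 1.43. Their summed intensity was 10784 and 19027 in control discs and 31622 and 49533 in Yki discs. Wing, leg and notum markers were mostly lower, 7 of 8, with a median of -1.06, 5 of 8 at an unadjusted limma p under 0.05 (8.07% of all genes in that direction), and sums of 1957 and 2627 in control discs and 1469 and 1057 in Yki discs. Tracheal markers were lower in 3 of 3, with sums of 428 and 597 in control discs and 187 and 244 in Yki discs. The brightest was knrl, at 301 and 299 in control discs and 105 and 120 in Yki discs. Only knrl had an unadjusted limma p under 0.05 (8.07% of all genes in that direction). btl, the tracheal receptor gene, lay between 13.1 and 36.6, and its groups overlapped. The listed markers trh, dys and ppk4 were not analysed. Tendon markers, relevant to dpy and qsm, went both ways, with 1 of 3 at an unadjusted limma p under 0.05, lower with Yki (8.07% of all genes in that direction). That was slow, at 1387 and 1189 in control discs and 598 and 590 in Yki discs. sr, the tendon cell fate gene, overlapped between groups, with 128 and 95.5 in control discs and 82.1 and 178 in Yki discs. Tsp measured 732 and 551 in control discs and 766 and 886 in Yki discs, higher without overlap, as 22.5% of all genes were. The list sum was 2247 and 1835 in control discs and 1446 and 1654 in Yki discs. Bristle and sense organ markers had a lower mean log2 value in 7 of 7. Of these, 3 had an unadjusted limma p under 0.05 (8.07% of all genes in that direction), namely ase, ac and sc. The list sums were 1975 and 1985 in control discs and 1090 and 897 in Yki discs. pros made up most of the Yki sums, and its groups overlapped, with 670 and 935 in control discs and 783 and 604 in Yki discs. nompC also overlapped and lay between 12.6 and 22.5, close to the pseudocount of 16. No gene of these lists passed the adjusted threshold, and none had a mean below 16 in both groups. The part of these tissues in the levels of the ZP genes was not tested.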

How the data were processed

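The authors deposited linear intensities for 18952 probe sets on 4 arrays, 2 per group. Per the submitters' processing notes they used Affymetrix Expression Console. How probes were summarised, and any detection calls, is not given in the sources used here. The mean of the deposited intensities after trimming 2% at each end was 500.01 on every array. All columns were used. Probe sets took their names from the platform annotation, and of 13647 with 1 symbol, 13544 matched RefSeq (Release 6 plus ISO1 MT), which changed no symbol.

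limma 3.58.1 in R 4.3.3 fitted log2(intensity + 16) with the group as the only term over 18769 non-control probe sets, with Benjamini-Hochberg adjustment over all of them and a threshold of 0.05. Folds on this scale understate changes of dim probe sets. The residual degrees of freedom were 2, and moderation added 3.03. The p-values set the difference between groups against a moderated variance, which combines the spread between these arrays with that over all probe sets. The number of arrays limits the precision. A rule named all ZP genes, yki, up to 3 genes per list with the smallest unadjusted p and the 3 genes nearest to mey, and most marker genes are given by list. The eye markers B-H1 and chp, and ovo, sn, pros and nompC, fall outside it and were chosen with their values in view. The genes and lists were chosen with earlier results of these data known, and 12 list genes with no probe set of their own symbol were not analysed here.

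The alternatives were other pseudocounts (1 and 64), median subtraction, quantile normalization, a filter at a mean intensity of 100, a replicate block, trended and robust moderation, adjustment over genes, averaged probe sets and leaving out each array. Sequences and coordinates were not used here.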

Additional observations from a re-analysis of the deposited data

How the results depend on the processing

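No ZP gene passed under any of the 13 alternatives, with a smallest limma adjusted p of 0.171, although the number of probe sets called over the whole table went from 3 to 874 with array medians subtracted, 81 with the filter on dim probe sets, 27 with the replicate block, 20 with trended and robust moderation, 12 with quantile normalization, averaged probe sets or adjustment over genes, 2 with a pseudocount of 64, and 0 with a pseudocount of 1 or any array left out. The labels do not say that a replicate number marks a shared batch, so the numbers were not taken to pair the samples. Same-number arrays had deviations that correlated at 0.039, a measure that does not register a shift of a whole array. Median intensities were lower on both replicate 1 arrays (79.4 control, 81.1 Yki) than on both replicate 2 arrays (97.1 control, 101 Yki). Whether same-number arrays share a batch is thus not known. With the replicate block 0 ZP genes passed and their median stayed at 0.42. The median of the 8 was 0.34 to 0.42 under the other scalings, pseudocounts and fits, and 0.13 to 0.53 with 1 array left out. The count of ZP genes at least 2-fold apart was 0, and 0 to 1 with 1 array left out (dyl without control replicate 1, dpy without control replicate 2, mey without Yki replicate 2, each higher with Yki).

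The sign of pio turned to 0.049 with its probe sets averaged. With 1 array left out the log2 difference ranged from -0.32 to 1.56 for dpy, -0.65 to 0.36 for pio, -0.21 to 2.08 for dyl, -0.037 to 0.78 for tyn and -0.48 to 0.70 for neo, so that their directions rest on single arrays. dy (-0.98 to -0.11), mey (0.50 to 1.69) and qsm (0.35 to 0.57) kept their direction in all alternatives. yki had 4.34 to 4.37 with 1 array left out. On all 4 arrays its limma adjusted p was 0.039 in the main fit. With a pseudocount of 1 it was 0.232, so that the call of yki was lost. With array medians subtracted it was 1.5e-21, although the log2 difference of yki hardly moved (4.32, and 4.35 in the main fit). The 874 calls and the smallest adjusted p of 0.171, that of mey, came from that same setting. The medians of the other lists with 1 array left out were added after seeing the data.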
